A study of Mus musculus with 12 samples.

Results

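Lysosomal genes were followed through total RNA and polysome RNA of differentiating stromal vascular cells from obese mice. The set held 45 listed genes out of 35523 genes in the count table, and all 45 were matched by symbol. They are a list of names, proposed with earlier results of these data known. By role they were 9 proteases (Ctsa, Ctsb, Ctsd, Ctsh, Ctsk, Ctsl, Ctss, Ctsz and Tpp1), 13 glycosidases and sulfatases (Gla, Gaa, Galc, Gusb, Hexa, Manba, Man2b1, Neu1, Naglu, Ids, Idua, Arsa and Arsb), 6 lipid hydrolases and activators (Asah1, Smpd1, Lipa, Psap, Gm2a and Ppt1), 5 membrane proteins and progranulin (Lamp1, Lamp2, Scarb2, Mcoln1 and Grn), 3 transcription factors (Tfeb, Tfe3 and Mitf) and 9 genes of the proton pump (Atp6ap1, Atp6v0a1, Atp6v0c, Atp6v0d1, Atp6v1a, Atp6v1b2, Atp6v1c1, Atp6v1e1 and Atp6v1h).

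The study asked which mRNAs of these cells are engaged by ribosomes after activation of PPARγ, the nuclear receptor that drives fat cell formation. The stromal vascular fraction (SVF) is the mixture of cells left when fat cells are removed from adipose tissue, and here it came from epididymal fat of 12-week-old male Lepob/Lepob (ob/ob) mice, which lack functional leptin and are obese. All 4 groups carried this genotype and received an adipogenic cocktail of 0.5 mM IBMX, 1 µM dexamethasone and 5 µg/mL insulin, followed by insulin alone. The Rosi groups also received 1 µM rosiglitazone, a PPARγ agonist, and the Veh groups received DMSO. Cells were collected on day 4 of culture by the protocol, where the series description has 3 days of differentiation, after 5 min in 100 µg/mL cycloheximide, which holds ribosomes on mRNA. Each culture condition was sequenced as input, the total RNA of the lysate, and as polysome, the pooled heavy fractions of a sucrose gradient, which hold mRNAs with more than 3 ribosomes by the methods and with 3 or more by the series description. The polysome libraries are titled eWAT (epididymal white adipose tissue) and were taken as the polysome pool because the others are titled input. Each of the 4 groups had 3 libraries, but input Veh replicates 2 and 3 held identical values for all 117135 transcripts and were counted as 1, so 11 libraries were compared and input Veh had n = 2. The titles call the libraries biological replicates. The sources used here do not give which animals or cultures they came from, so the p-values measure the spread between these libraries.

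Lysosomes are acidic compartments in which hydrolases break down proteins, glycans, glycogen and lipids delivered by endocytosis, phagocytosis and autophagy. The vacuolar proton pump acidifies them, heavily glycosylated membrane proteins line them, and the transcription factors TFEB, TFE3 and MITF can switch on many of their genes through E-box sequences in promoters. In obese fat, macrophages that take up lipid from dying fat cells are known for abundant lysosomes.

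The E-box is the sequence these transcription factors bind, so it was searched for in the promoters of the set. As many lysosomal genes are already known to be switched on through it, a higher share was likely beforehand. The shares below are therefore a description and not independent evidence. A promoter window, from 250 bases before to 50 bases after the start of the gene in RefSeq (GRCm38.p6), was found for 39 of the 45 genes and was searched on both strands. The core CACGTG was in 11 of 39 windows (28.2%) against 8.09% of 27025 genes with a window. These 27025 genes outnumber the 14042 tested between fractions. They thus include genes too low to be tested, while all 45 genes of the set were tested. Those genes were Arsa, Atp6v0d1, Atp6v1a, Ctsa, Ctsd, Ctsl, Gaa, Gla, Lamp1, Mcoln1 and Naglu. The longer TCACGTGA, which contains the core, was in 6 of 39 (15.4%) against 1.12% of all genes. GTCACGTG or its reverse complement CACGTGAC, which also contains the core and overlaps TCACGTGA, was in 8 of 39 (20.5%) against 2.55%. A match is a description of letters and not of binding. For 6 of these 11 genes, the stretch around an 8-base match is printed 5′ to 3′ on the strand of the gene, with the match in capitals. In Atp6v0d1 a pair of overlapping matches makes a longer run of capitals. A gene can have several starts and further matches that are not shown.
Arsa, chr15:89477415-89477462, minus strand: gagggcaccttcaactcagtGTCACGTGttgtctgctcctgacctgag
Atp6v0d1, chr8:105566042-105566089, minus strand: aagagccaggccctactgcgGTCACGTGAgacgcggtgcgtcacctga
Atp6v1a, chr16:44139364-44139411, minus strand: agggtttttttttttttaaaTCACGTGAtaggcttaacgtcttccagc
Ctsd, chr7:142388045-142388077, minus strand: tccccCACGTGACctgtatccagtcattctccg
Lamp1, chr8:13159113-13159160, plus strand: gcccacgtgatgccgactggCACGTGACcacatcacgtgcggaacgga
Mcoln1, chr8:3500426-3500473, plus strand: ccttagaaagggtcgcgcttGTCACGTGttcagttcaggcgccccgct
These 6 are shown because, by the RefSeq start, their matches lie outside the transcribed part of the gene or close to its start. The Atp6v1a gene model used for counting begins elsewhere, at chr16:44139705, so that the printed stretch lies inside it. In Lamp1, the most used marker of the lysosomal membrane, the marked match begins at position −28 from the start, and the core occurs again on both sides of it. In Ctsd, which encodes the aspartic protease cathepsin D, the marked match begins at position −245 from the RefSeq start. The Ctsd gene model used for counting begins nearer to the match, at chr7:142388038.

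Depth was 17.4 to 24.0 M reads per library. The markers measured were those of a mixture of cells. All 16 macrophage markers were found above 1 CPM (a gene's reads relative to the size of its library, here scaled across all 11 libraries by TMM factors), with a summed level of 18573 to 21550 CPM in input Veh, 13450 to 15960 in input Rosi, 18182 to 23061 in polysome Veh and 16287 to 20417 in polysome Rosi. The 12 adipocyte markers summed to 550 to 590, 1461 to 1754, 658 to 837 and 2335 to 2800 CPM in the same order. In input Veh, the 10 progenitor and fibroblast markers summed to 5598 to 6843 CPM and the 4 smooth muscle markers to 11439 to 11568. There the 4 endothelial markers summed to 20.7 to 23.1 CPM, the 4 mesothelial to 53.9 to 63.8 and the 4 epididymal to 112 to 124. The progenitor marker Dpp4, the endothelial marker Pecam1, 3 of the epididymal markers and all 4 lymphocyte markers were under 1 CPM in the mean. On the first principal component, which carried 67.4% of the variance and separated input from polysome, polysome Veh replicate 1 lay farthest out of the polysome libraries, at −44.7 against −18.0 to −37.0.

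The 45 genes were abundant. Together they took 3.27% to 3.80% of the reads of each input library and 2.74% to 3.27% of each polysome library. The input Veh and polysome Rosi libraries did not overlap in this share. Ctsb and Ctsd alone held 1.25% to 1.91% of all reads. On the TPM scale, which divides reads by transcript length and so allows genes to be compared, the highest mean over 11 libraries was that of Ctsd, at 5150 TPM, followed by the cysteine protease gene Ctsb at 3750, the saposin precursor gene Psap at 1460, the cysteine protease gene Ctsl at 1280 and Atp6v0c, a membrane subunit of the pump, at 1130. Ctsl and Atp6v0c did not differ beyond the spread of the libraries, and Lamp1 followed at 1090 TPM. On average, 50.8% of the Ctsb TPM came from a short transcript with a retained intron, as described further on. The lowest means were those of the iduronate sulfatase gene Ids (9.53 TPM), Tfeb (9.45), Mitf (8.37), the iduronidase gene Idua (8.17) and the α-galactosidase gene Gla (2.97).

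Ctsd had 6689 ± 364 TPM in input Veh (SD, n = 2), 5635 ± 350 in input Rosi (n = 3), 4624 ± 777 in polysome Veh (n = 3) and 4154 ± 415 in polysome Rosi (n = 3). Lamp1 ran the other way between fractions, with 909 ± 46.4, 968 ± 80.6, 1200 ± 51.4 and 1207 ± 80.3 TPM in the same order. All 45 genes passed the filter on low counts in every comparison.

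**Figure D1:**
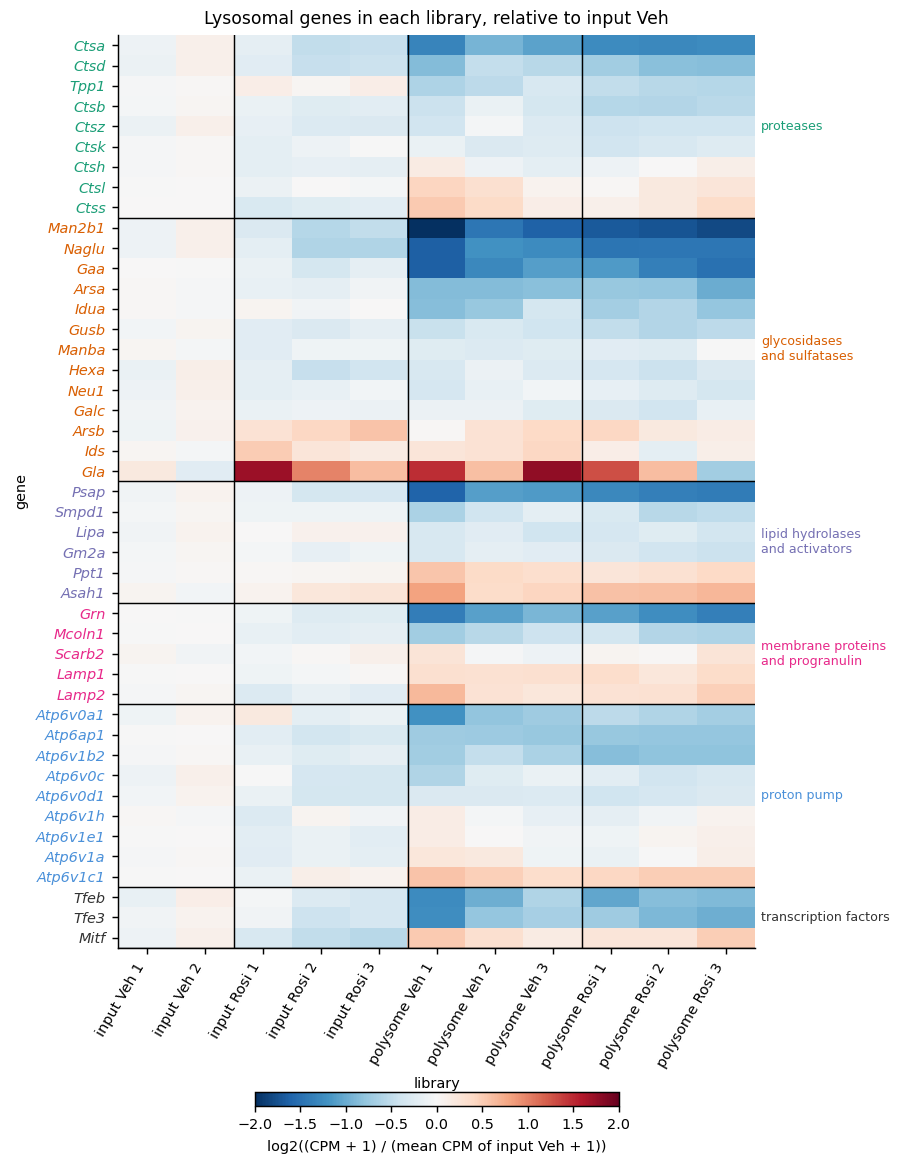
Level of each of the 45 genes (rows, grouped by role) in each of the 11 libraries (columns), as log2 of CPM plus 1 relative to the mean of input Veh. Most rows of glycosidases, proteases and transcription factors turn to the colours of lower levels in the 6 polysome columns, while Lamp1, Lamp2, Asah1 and Ctss turn to those of higher levels.

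The comparison of input with polysome asks which of these mRNAs were relatively enriched in, or depleted from, heavy polysomes. Apart from Gla, an enrichment that rested on few reads, the largest differences were depletions, mostly of hydrolase mRNAs. In Veh, the polysome level of Man2b1, which encodes the lysosomal α-mannosidase, was 31.4% of its input level, and those of Naglu, which trims heparan sulfate, and Gaa, which degrades glycogen, were 38.8% and 39.8%. Lamp1, Lamp2 and the acid ceramidase gene Asah1 were instead enriched. By edgeR's quasi-likelihood test with Benjamini-Hochberg adjustment (adjusted p under 0.05 and a log2 fold change beyond 0.2 in either direction), 31 of 45 genes were called in Veh, 9 higher and 22 lower in polysome. Among all 14042 genes tested, 49.3% were called, 24.7% higher and 24.6% lower. In Rosi, 31 of 45 were called, 8 higher and 23 lower, against 55.0% of all genes (29.1% higher and 26.0% lower). The median log2 ratio of the 45 genes was −0.25 in Veh and −0.27 in Rosi, beside 0.02 and 0.00 for all genes tested. The ratio was below 0 for 31 genes in Veh and 32 in Rosi, where 48.9% and 49.9% of all genes lay below 0.

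These ratios are relative to the average mRNA of the same libraries, because each library was scaled by its total and TMM factor. They give no absolute amount of ribosome-bound mRNA. Of the 16 macrophage markers, 3 were called higher and 9 lower in polysome in Veh (median −0.46), and 5 and 5 in Rosi (median −0.21), and the part of the cell mixture in the ratios of the lysosomal genes was not tested. Both ratios came from the same fit over all libraries, with shared scaling and spread. Although the libraries of the 2 treatments are separate, the calls set side by side here are thus not independent. Of the genes called higher, 7 were shared, which is 77.8% of the Veh calls and 87.5% of the Rosi calls, beside 86.9% and 73.8% over all genes tested. Of those called lower, 21 were shared, which is 95.5% and 91.3%, beside 84.3% and 80.0% over all genes tested. The difference of these shares was not tested. Ctsl and Gla were called higher in Veh alone, Atp6v1e1 higher in Rosi alone, Atp6v0d1 lower in Veh alone, and Ctsk and Ids lower in Rosi alone. The test of the difference between treatments, given below, called none of these. The polysome libraries lay above all input libraries for 10 of the 45 genes and below them for 26 in Veh, beside 32.5% and 31.5% of all genes, and for 10 and 25 in Rosi, beside 33.7% and 31.7%.

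**Figure D2:**
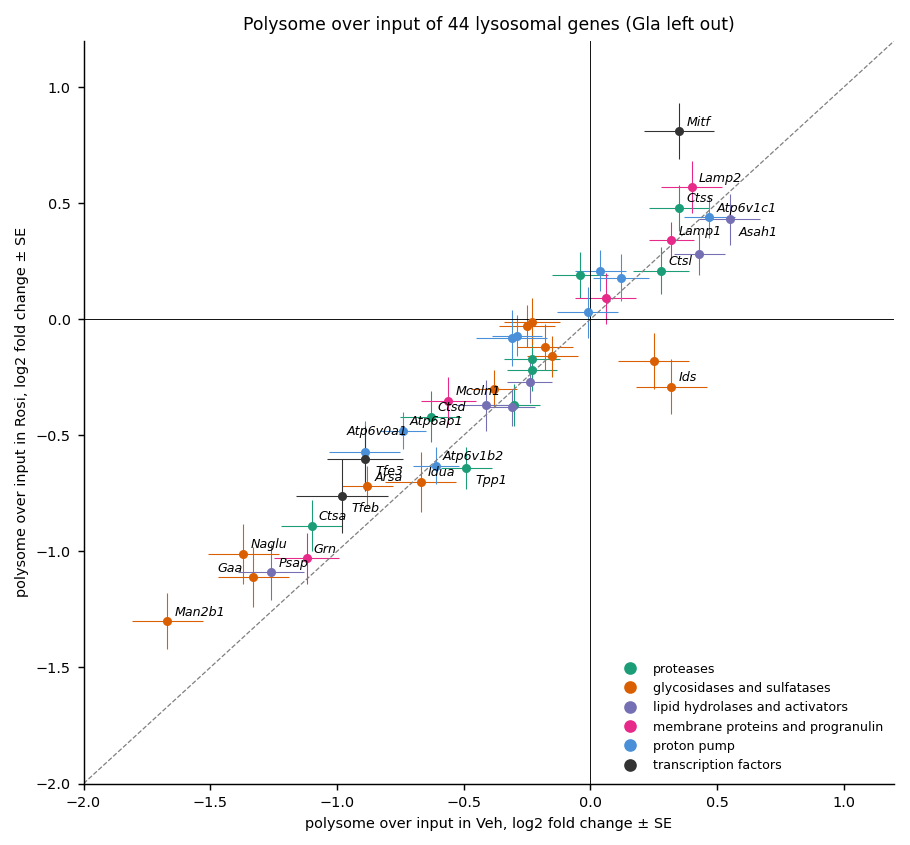
Log2 ratio of polysome to input in Veh (horizontal) and Rosi (vertical) for 44 of the 45 genes, with standard errors as bars, the line of equality and colours for roles. Gla, whose Veh ratio was 2.36 ± 0.93, is left out for scale. Man2b1, Naglu, Gaa, Psap and Grn lie at the lower left below −1 in both treatments.

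Among glycosidases and sulfatases, 1 of 13 was called higher and 6 lower in Veh (median −0.25), and 0 and 7 in Rosi (median −0.30). Man2b1 (ENSMUSG00000005142.10, chr8:85083270-85098282 in mm10, plus strand) had 461 and 530 CPM in input Veh, 405, 334 and 352 in input Rosi, 124, 181 and 161 in polysome Veh and 153, 149 and 141 in polysome Rosi, on the scale shared by all 11 libraries. Every polysome library lay below every input library. The log2 ratio was −1.67 ± 0.14 (SE, adjusted p = 4.46e-07) in Veh and −1.30 ± 0.12 (adjusted p = 1.02e-06) in Rosi, the smallest p of the 45 genes in both. Naglu had 123 and 141 CPM in input Veh, 115, 86.2 and 86.7 in input Rosi, 41.9, 56.7 and 54.7 in polysome Veh and 47.2, 47.6 and 48.0 in polysome Rosi. Its 6 polysome values were all below its 5 input values. It fell by 1.37 ± 0.14 in Veh (adjusted p = 3.51e-06) and by 1.01 ± 0.13 in Rosi (adjusted p = 1.42e-05).

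Gaa, whose enzyme is deficient in Pompe disease, had 215 and 212 CPM in input Veh, 195, 167 and 188 in input Rosi, 68.6, 86.6 and 99.5 in polysome Veh and 97.2, 82.5 and 75.4 in polysome Rosi. The fractions did not overlap, with ratios of −1.33 ± 0.14 in Veh (adjusted p = 3.74e-06) and −1.11 ± 0.13 in Rosi (adjusted p = 5.12e-06). Arsa, the arylsulfatase that acts on sulfatide, had 66.8 and 64.6 CPM in input Veh, 59.5, 57.7 and 62.7 in input Rosi, 35.7, 35.4 and 36.3 in polysome Veh and 38.4, 38.0 and 32.5 in polysome Rosi. Its groups were tight and apart, with ratios of −0.88 ± 0.10 (adjusted p = 8.59e-06) and −0.72 ± 0.09 (adjusted p = 1.22e-05). From protein-coding transcripts only, an alternative chosen after seeing the data, the Arsa ratio was −1.52 in Veh (adjusted p = 5.54e-05) and −1.03 in Rosi (adjusted p = 0.000457). Gla was the 1 gene of this role called higher in Veh, and it rested on few reads. The input held 14 and 7 Gla reads in Veh and 87, 50 and 36 in Rosi, and the polysome pool held 67, 31 and 86 in Veh and 69, 34 and 0 in Rosi. Its Veh ratio of 2.36 ± 0.93 (adjusted p = 0.0453) lost its call without input Veh replicate 1 or 2, and without polysome Veh replicate 1 or 3, polysome Rosi replicate 2 or input Rosi replicate 2. It was also not called by DESeq2, and on the log2(TPM + 1) scale, by limma, it was −0.12.

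Among proteases, 2 of 9 were called higher and 4 lower in Veh (median −0.23), and 1 and 5 in Rosi (median −0.22). Ctsa, the serine carboxypeptidase that also protects neuraminidase and β-galactosidase, had 1028 and 1181 CPM in input Veh, 971, 783 and 802 in input Rosi, 442, 582 and 524 in polysome Veh and 460, 453 and 461 in polysome Rosi. All polysome values lay below all input values. It fell by 1.10 ± 0.12 in Veh (adjusted p = 5.38e-06) and by 0.89 ± 0.11 in Rosi (adjusted p = 9.22e-06). Tpp1, a tripeptidyl peptidase, had 160 and 166 CPM in input Veh, 178, 168 and 178 in input Rosi, 106, 113 and 130 in polysome Veh and 115, 111 and 110 in polysome Rosi. The fractions were apart, with ratios of −0.49 (adjusted p = 0.000978) in Veh and −0.64 ± 0.09 (adjusted p = 3.15e-05) in Rosi. Ctsd fell by 0.63 in Veh (adjusted p = 0.000693) and by 0.42 in Rosi (adjusted p = 0.00486). Ctsd and the next gene were chosen for mention after their values were seen. Ctss, a cysteine protease of antigen-presenting cells, went the other way, with 701 and 702 CPM in input Veh, 567, 592 and 604 in input Rosi, 1011, 913 and 767 in polysome Veh and 750, 806 and 902 in polysome Rosi. It rose by 0.35 ± 0.12 in Veh (adjusted p = 0.0192), a call lost without either input Veh library or polysome Veh replicate 1, and by 0.48 in Rosi (adjusted p = 0.00105).

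Lipid hydrolases and activators split, with 2 of 6 called higher and 4 lower in both treatments (median −0.28 in Veh and −0.32 in Rosi). Psap, whose product is cut into the saposins that present sphingolipids to hydrolases, had 4303 and 4724 CPM in input Veh, 4207, 3525 and 3593 in input Rosi, 1487, 2104 and 2066 in polysome Veh and 1853, 1745 and 1715 in polysome Rosi. No polysome value reached an input value, and the ratios were −1.26 ± 0.13 in Veh (adjusted p = 3.49e-06) and −1.09 ± 0.12 in Rosi (adjusted p = 3.46e-06). Asah1 and Ppt1, which were chosen for mention after their values were seen, rose. Asah1 had 282 and 262 CPM in input Veh, 285, 320 and 326 in input Rosi, 475, 351 and 366 in polysome Veh and 408, 414 and 431 in polysome Rosi, so that all polysome libraries lay above all input libraries. Its ratio was 0.55 ± 0.12 in Veh (adjusted p = 0.00185) and 0.43 in Rosi (adjusted p = 0.00359). Transcripts that are not protein-coding held 25.1% and 19.4% of the Asah1 reads in input Veh and Rosi and 34.0% and 35.6% in polysome. From protein-coding transcripts only, the ratio was 0.37 in Veh (adjusted p = 0.0226) and 0.11 in Rosi (adjusted p = 0.42), which was not called. Ppt1, the palmitoyl protein thioesterase, rose by 0.43 ± 0.10 (adjusted p = 0.00184) and 0.28 (adjusted p = 0.0121). It shares 129 exon bases with Cap1 on the opposite strand, and Cap1 was at 949 CPM against 223 for Ppt1, so reads of the 2 genes could be mixed if the counting did not use strand.

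Among membrane proteins and progranulin, 2 of 5 were called higher and 2 lower in both treatments (median 0.06 in Veh and 0.09 in Rosi). Lamp1 (ENSMUSG00000031447.7, chr8:13159161-13175338 in mm10, plus strand) had 1532 and 1540 CPM in input Veh, 1445, 1502 and 1569 in input Rosi, 1928, 1888 and 1918 in polysome Veh and 1956, 1795 and 1971 in polysome Rosi. Polysome values were above input values without overlap. Lamp1 rose by 0.32 ± 0.09 in Veh (adjusted p = 0.0081), which is 124% of input, and by 0.34 ± 0.08 in Rosi (adjusted p = 0.00179), which is 127%. Without input Veh replicate 1 the Veh value was 0.31 and was no longer called. Lamp2, the partner of Lamp1 in the lysosomal membrane and chosen for mention after its values were seen, had 514 and 537 CPM in input Veh, 435, 473 and 450 in input Rosi, 822, 645 and 614 in polysome Veh and 645, 646 and 727 in polysome Rosi. It rose by 0.40 ± 0.12 in Veh (adjusted p = 0.0115), a call also lost without input Veh replicate 1, and by 0.57 ± 0.11 in Rosi (adjusted p = 0.000319).

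Grn encodes progranulin, a secreted and lysosomal glycoprotein. It had 1643 and 1612 CPM in input Veh, 1538, 1358 and 1369 in input Rosi, 620, 766 and 862 in polysome Veh and 767, 686 and 633 in polysome Rosi. All polysome libraries were below all input libraries, at 46.0% of input in Veh (log2 ratio −1.12 ± 0.13, adjusted p = 5.66e-06) and 48.9% in Rosi (−1.03 ± 0.11, adjusted p = 3.34e-06). The calcium channel gene Mcoln1, chosen for mention after its values were seen, fell by 0.56 in Veh (adjusted p = 0.000739).

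**Figure D3:**
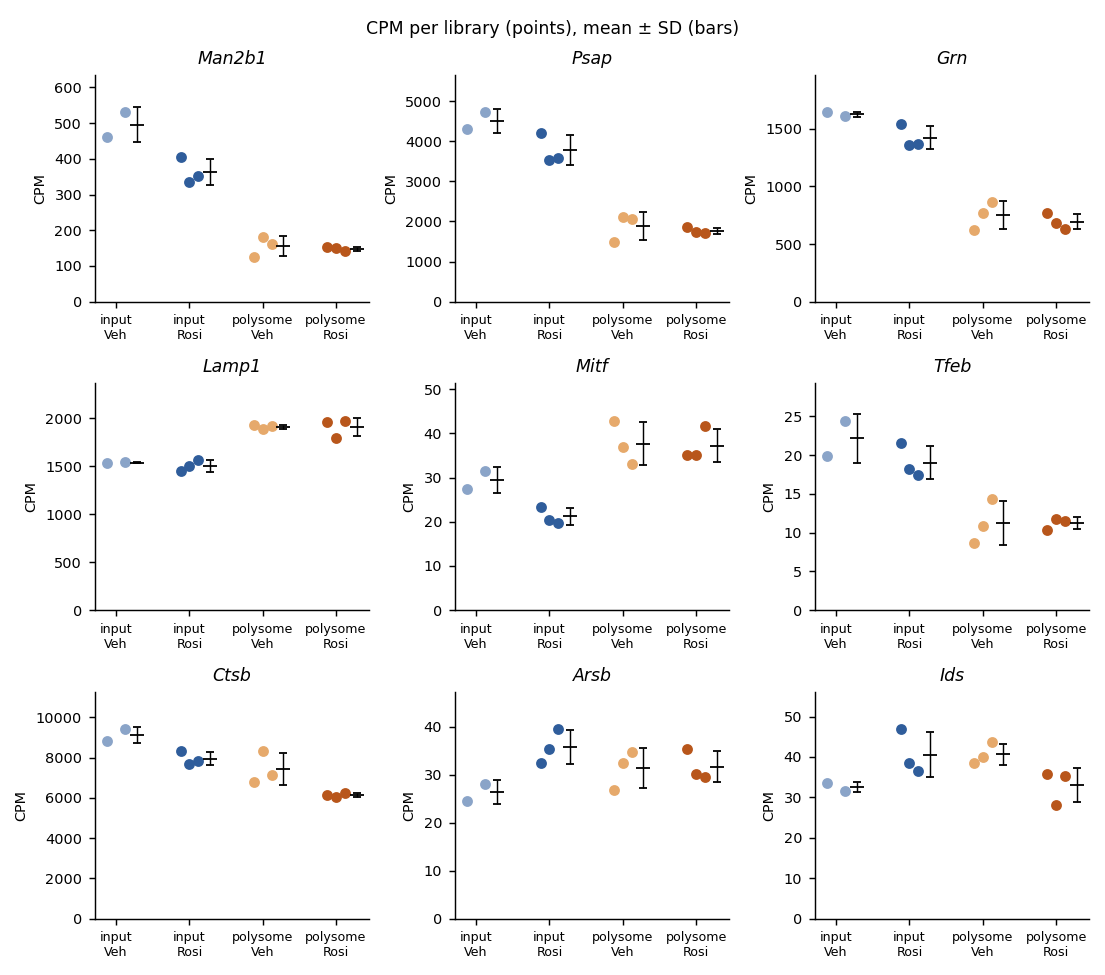
Level in CPM, on the scale shared by all 11 libraries, of 9 genes in each library (points) by group, with group means and SDs as bars (n = 2 in input Veh and 3 in the other groups). Man2b1, Psap, Grn and Tfeb sit lower in polysome than in input in every library, and Lamp1 and Mitf sit higher.

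The 3 transcription factors did not move together. Tfeb had 19.9 and 24.4 CPM in input Veh, 21.5, 18.2 and 17.4 in input Rosi, 8.64, 10.8 and 14.3 in polysome Veh and 10.3, 11.8 and 11.5 in polysome Rosi, with no overlap of the fractions. It fell by 0.98 ± 0.18 in Veh (adjusted p = 0.000341) and by 0.76 ± 0.16 in Rosi (adjusted p = 0.000834). Tfe3 had 110 and 121 CPM in input Veh, 109, 85.9 and 90.9 in input Rosi, 48.0, 66.8 and 72.5 in polysome Veh and 69.7, 61.2 and 58.2 in polysome Rosi. It was also lower in every polysome library, by 0.89 ± 0.15 in Veh (adjusted p = 0.000252) and by 0.60 ± 0.14 in Rosi (adjusted p = 0.0021).

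Mitf went the other way. It had 27.3 and 31.5 CPM in input Veh, 23.3, 20.5 and 19.8 in input Rosi, 42.8, 37.0 and 33.1 in polysome Veh and 35.0, 35.1 and 41.6 in polysome Rosi. Every polysome value exceeded every input value. In Rosi it rose by 0.81 ± 0.12 (adjusted p = 4.87e-05), which is 176% of input. In Veh it rose by 0.35 ± 0.14 (adjusted p = 0.042), a call that was lost without polysome Veh replicate 1 or 2, input Veh replicate 1 or 2, polysome Rosi replicate 2, or input Rosi replicate 2 or 3, with values of 0.24 to 0.46.

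Among genes of the proton pump, 1 of 9 was called higher and 4 lower in Veh (median −0.29), and 2 and 3 in Rosi (median −0.07). Atp6ap1, an accessory subunit, had 457 and 461 CPM in input Veh, 396, 357 and 373 in input Rosi, 280, 276 and 270 in polysome Veh and 272, 268 and 267 in polysome Rosi. The polysome libraries lay within a narrow band below all input libraries, and the ratio was −0.74 ± 0.09 in Veh (adjusted p = 7.73e-06) and −0.48 in Rosi (adjusted p = 9.32e-05). Atp6v1b2, the B subunit of the cytosolic ATPase ring, had 398 and 410 CPM in input Veh, 365, 341 and 355 in input Rosi, 248, 290 and 259 in polysome Veh and 224, 231 and 230 in polysome Rosi. It fell by 0.61 ± 0.09 in Veh (adjusted p = 8e-05) and by 0.63 ± 0.08 in Rosi (adjusted p = 1.61e-05). Atp6v0a1, an a subunit of the membrane sector, had 272 and 304 CPM in input Veh, 329, 251 and 264 in input Rosi, 124, 167 and 175 in polysome Veh and 201, 189 and 179 in polysome Rosi. It fell by 0.89 ± 0.14 in Veh (adjusted p = 0.000129) and by 0.57 in Rosi (adjusted p = 0.00167). In the same cytosolic sector, Atp6v1c1, chosen for mention after its values were seen, rose by 0.47 ± 0.10 (adjusted p = 0.00159) and 0.44 (adjusted p = 0.000782), with 148 and 149 CPM in input Veh, 136, 161 and 156 in input Rosi, 222, 207 and 190 in polysome Veh and 198, 209 and 210 in polysome Rosi. The ATPase subunit gene Atp6v1a, chosen in the same way and at 0.12 in Veh, was not called.

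At a stricter fold, a log2 ratio beyond 1, Ctsa, Gaa, Grn, Man2b1, Naglu and Psap were the 6 genes called lower in Veh and Gla the 1 called higher. Of all genes tested, 6.68% were called lower and 2.99% higher at that fold. In Rosi the same list without Ctsa, 5 genes, was called lower and 0 genes higher, beside 4.86% and 6.49% of all genes.

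The position of the 45 genes between input and polysome was set beside features of the transcript. A protein-coding transcript with the annotated version, taken as the most abundant of its gene, was available for 42 of the 45 genes (not for Arsa, Ctsb and Grn) and for 12707 other genes. The correlations below run across genes, which share libraries and are not independent replicates, and are given as descriptions. The GC content of the transcript and the Veh ratio had Pearson's r = −0.60 and Spearman's rho = −0.73 over the 42 genes, and −0.57 and −0.65 over the other genes. In Rosi the values were −0.64 and −0.61 over the 42 genes and −0.63 and −0.67 over the others. For coding sequence length, r was −0.62 and rho −0.53 over the 42 genes in Veh and −0.44 and −0.45 in Rosi. Over the other genes r was −0.26 in both, and rho was −0.30 in Veh and −0.32 in Rosi. Without Gla, whose most abundant transcript has a coding sequence of 231 bases, r for coding length was −0.56 in Veh and −0.54 in Rosi over 41 genes, and r for transcript GC content was −0.74 and −0.65. The median coding length was 1432.5 bases in the 42 genes and 1266 in the others, and the median coding GC content was 52.4% and 53.0%.

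In 5 bins of coding GC content with like numbers of other genes, the 6 lysosomal genes in the lowest bin, 31.9% to 47.0% GC, which included Lamp2 and Asah1, had a median ratio of 0.22 in Veh beside 0.50 for other genes. The 5 genes of the highest bin, 58.3% to 77.7% GC, Gaa, Naglu, Neu1, Tfe3 and Tfeb, had −0.98 beside −0.42. In the 3 bins between, from low to high GC, the medians were 0.09, −0.50 and −0.41 beside 0.27, −0.04 and −0.37, so that in the 9 genes of the bin next to the highest they were close. In Rosi the lowest and highest bins gave 0.32 beside 0.69 and −0.76 beside −0.36, and the 3 between gave 0.03, −0.36 and −0.35 beside 0.26, −0.06 and −0.34. Man2b1 lay in the middle bin with a coding GC of 54.5% and a long coding sequence of 3042 bases. Lamp2 had a coding GC of 42.7%, Lamp1 of 50.5% and Tfeb of 61.4%. The part of GC content in the ratios was not tested.

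**Figure D4:**
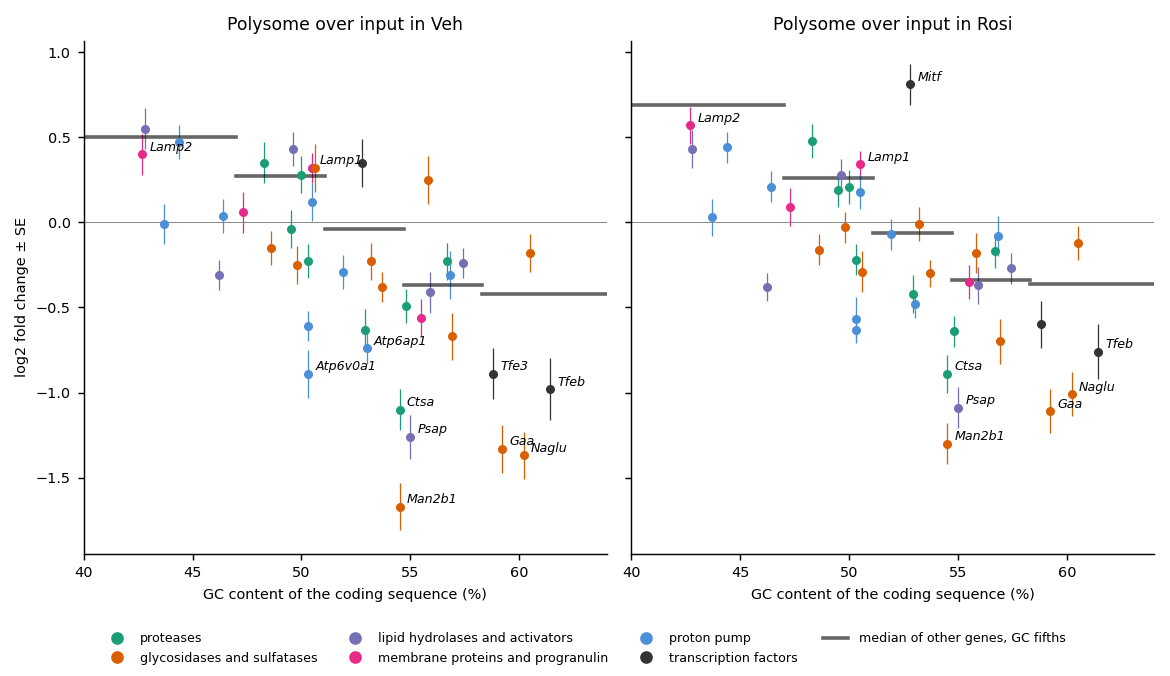
Log2 ratio of polysome to input (vertical) against the GC content of the coding sequence in percent (horizontal) in Veh and in Rosi, for lysosomal genes with a coding transcript apart from Gla (points), with the median of the other genes in each of 5 bins of GC content as black bars. Points and bars both descend from left to right, and Tfeb, Tfe3, Gaa and Naglu lie at the lower right. Neu1, at a coding GC of 60.5%, lies above them, at −0.18 in Veh and −0.12 in Rosi.

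The comparison of Rosi with Veh in input asks how the agonist changed the mRNA levels. None of the 45 genes was called by edgeR's quasi-likelihood test, against 1.34% of 13603 genes tested (1.13% higher and 0.206% lower). Without adjustment, at p under 0.05, 4 had higher levels in Rosi (Arsb, Asah1, Gla and Ids) and 10 lower (Atp6ap1, Atp6v0d1, Ctsa, Ctsd, Ctss, Hexa, Man2b1, Mitf, Naglu and Psap), where 9.2% and 7.79% of all genes met that p. DESeq2 called 4, with Arsb and Gla higher and Ctsd and Man2b1 lower. The fold changes ranged from −0.41 to 2.18 with a median of −0.11, beside 0.01 for all genes, and 32 of 45 were below 0, where 48.1% of all genes were. All 3 Rosi libraries lay above both Veh libraries for 6 genes and below both for 21, beside 18.7% and 15.7% of all genes.

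Values in this comparison are CPM scaled within the input libraries. Arsb, a sulfatase of dermatan and chondroitin sulfate (ENSMUSG00000042082.7, chr13:93771630-93943016 in mm10, plus strand), had 23.2 and 26.2 CPM in Veh and 31.3, 35.2 and 39.3 in Rosi. The groups did not overlap, and the change of 0.51 ± 0.12 had an adjusted p of 0.064. Gla had 0.808 and 0.349 CPM in Veh and 4.13, 2.19 and 1.48 in Rosi, also apart, with a change of 2.18 ± 0.52 (adjusted p = 0.0672). In TPM, which accounts for transcript length, Gla had 3.02 ± 0.723 in Veh and 3.78 ± 0.903 in Rosi, so the difference in reads was not matched by one in TPM. Man2b1 had 435 and 495 CPM in Veh and 390, 332 and 351 in Rosi, all lower, with −0.38 ± 0.10 (adjusted p = 0.0809). Mitf had 25.8 and 29.4 CPM in Veh and 22.5, 20.4 and 19.7 in Rosi, all lower, with −0.41 ± 0.12 (adjusted p = 0.107).

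Lamp1 had 1445 and 1439 CPM in Veh and 1393, 1493 and 1561 in Rosi, with the Veh values inside the Rosi range and a change of 0.04 ± 0.08 (adjusted p = 0.829). Tfeb had 18.8 and 22.8 CPM in Veh and 20.7, 18.1 and 17.3 in Rosi (−0.16 ± 0.13, adjusted p = 0.556), and Tfe3 had 104 and 113 in Veh and 106, 85.4 and 90.4 in Rosi (−0.21 ± 0.11, adjusted p = 0.333). Both overlapped between groups. By role, the median change was −0.13 for proteases, −0.07 for glycosidases and sulfatases, 0.04 for lipid hydrolases and activators, −0.11 for membrane proteins and progranulin, −0.21 for transcription factors and −0.12 for the proton pump.

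Leaving out 1 library changed the count of calls in input. Without input Rosi replicate 1, 14 of the 45 genes were called, with 1580 genes called in all. Arsb (0.58, adjusted p = 0.00258), Asah1 (0.32, adjusted p = 0.0186) and Gla (1.67, adjusted p = 0.0348) were higher. The 11 lower genes were Naglu (−0.53, adjusted p = 0.00122), Man2b1 (−0.45, adjusted p = 0.00235), Ctsa (−0.40, adjusted p = 0.0042), Ctsd (−0.37, adjusted p = 0.00564) and Mitf (−0.47, adjusted p = 0.0126), together with Hexa, Psap, Tfe3, Atp6v0d1, Atp6v0c and Atp6ap1. For Naglu, with 116 and 132 CPM in Veh, replicate 1 had 111 CPM and the other Rosi libraries 85.7 and 86.3. For Ctsd, with 9330 and 10792 CPM in Veh, replicate 1 had 8863 CPM and the others 7742 and 7926.

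Macrophage markers moved in the same direction. All 16 had fold changes below 0 in input (median −0.36, range −0.49 to −0.05), and 2 of them were called lower. The lysozyme gene Lyz2 fell by 0.45 ± 0.08 (adjusted p = 0.0112), from 10685 ± 692 CPM in Veh to 7466 ± 410 in Rosi on the scale shared by all 11 libraries. Of the 12 adipocyte markers, 9 were called higher with a median of 2.74. In bulk libraries, fewer cells of a type and less RNA per cell cannot be told apart. The part of the cell mixture in the values of the lysosomal genes was not tested.

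**Figure D5:**
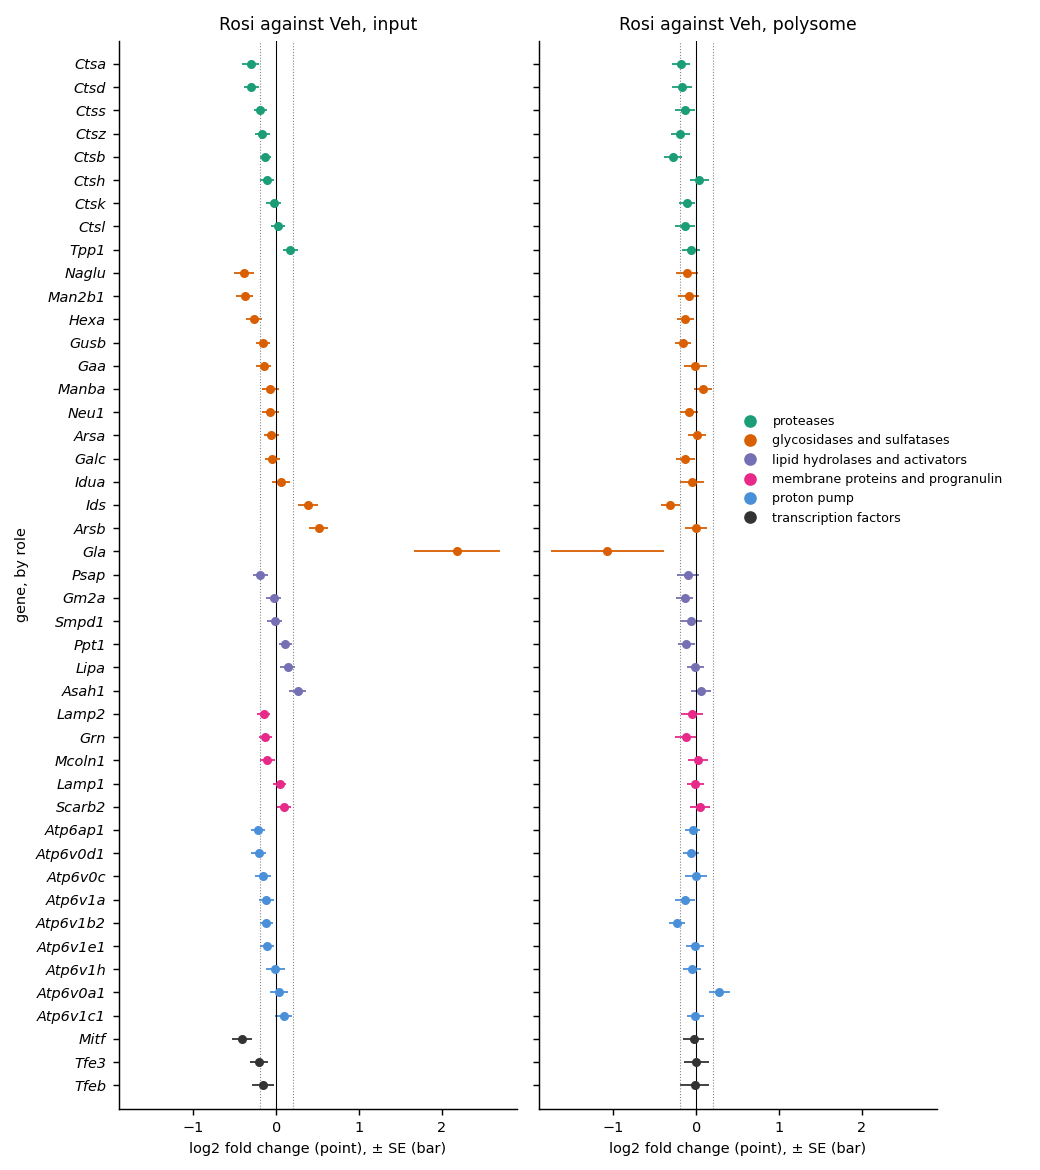
Log2 fold change of Rosi against Veh, with its standard error, for each of the 45 genes by role, in input and in polysome, with dotted lines at −0.2 and 0.2. Gla in input stands at 2.18 and in polysome at −1.07, and the other 44 genes lie between −0.41 and 0.51 in both fractions.

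In polysome, the same comparison again called none of the 45 genes, against 0.655% of 13436 genes tested (0.633% higher and 0.0223% lower). DESeq2 also called 0. Without adjustment, at p under 0.05, 0 genes had higher levels and 3 had lower levels (Atp6v1b2, Ctsb and Ids), where 2.56% and 2.17% of all genes met that p. The median was −0.06 with a range of −1.07 to 0.28, beside −0.01 for all genes, and 36 of 45 were below 0, where 52.3% of all genes were. All 3 Rosi libraries lay above all 3 Veh libraries for 1 gene, Atp6v0a1, and below them for 7 (Atp6ap1, Atp6v0d1, Atp6v1b2, Ctsb, Ctsz, Gusb and Ids), beside 4.29% and 4.98% of all genes. All 16 macrophage markers were below 0 here too, with a median of −0.18 and 0 called.

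Here CPM were scaled within the polysome libraries. Ctsb (ENSMUSG00000021939.8, chr14:63122462-63145923 in mm10, plus strand) had 7028, 8595 and 7358 CPM in Veh and 6277, 6211 and 6473 in Rosi. The Rosi libraries were all lower, by −0.28 ± 0.11 on the log2 scale (adjusted p = 0.962). Ids, which removes sulfate from heparan and dermatan sulfate, had 40.0, 41.3 and 44.9 CPM in Veh and 36.6, 29.0 and 36.4 in Rosi, also apart (−0.31 ± 0.12, adjusted p = 0.962). Atp6v1b2 had 256, 300 and 267 CPM in Veh and 228, 237 and 238 in Rosi, apart (−0.23 ± 0.10, adjusted p = 1). Atp6v0a1 had 128, 172 and 181 CPM in Veh and 205, 194 and 185 in Rosi, with every Rosi library higher (0.28 ± 0.13, adjusted p = 1).

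Lamp1 had 1996, 1954 and 1976 CPM in polysome Veh and 1995, 1840 and 2039 in polysome Rosi, so the Rosi libraries spanned the Veh range (−0.01 ± 0.10). Tfeb had 8.94, 11.2 and 14.8 CPM in Veh and 10.5, 12.1 and 11.9 in Rosi (−0.02 ± 0.18), Tfe3 49.7, 69.1 and 74.8 in Veh and 71.1, 62.8 and 60.2 in Rosi (0.00 ± 0.15), and Mitf 44.3, 38.3 and 34.1 in Veh and 35.6, 36.0 and 43.0 in Rosi (−0.03 ± 0.13). All 3 overlapped, and the adjusted p was 1 for each of these 4 genes.

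Translational efficiency, the ratio of polysome to input, was compared between Rosi and Veh by the interaction of fraction and treatment in 1 model over the 4 groups. None of the 45 genes passed (adjusted p under 0.05 and a log2 change beyond 1), and 0.0% of 14042 genes did. DESeq2 called 1 gene in all, and 0 of the 45. Without adjustment, at p under 0.05, 2 were higher (Atp6ap1 and Mitf) and 3 lower (Arsb, Gla and Ids), where 4.46% and 2.39% of all genes met that p. The median was 0.08 with a range of −3.17 to 0.46, beside 0.06 for all genes, and 14 of 45 were below 0, where 40.9% of all genes were.

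Ids (ENSMUSG00000035847.15, chrX:70343069-70365084 in mm10, minus strand) had the smallest p. On the scale shared by all libraries it had 33.5 and 31.6 CPM in input Veh, 46.8, 38.5 and 36.5 in input Rosi, 38.6, 39.9 and 43.6 in polysome Veh and 35.9, 28.2 and 35.2 in polysome Rosi. It was higher with Rosi in every input library and lower in every polysome library, and its efficiency changed by −0.62 ± 0.18 (unadjusted p = 0.00381, adjusted p = 0.719). Of 13258 genes tested in both fractions, 1.09% showed such opposite and non-overlapping directions, and Ids was the 1 gene of the set among them. Lysosomal genes outside the set were not counted separately for this. Arsb had 24.6 and 28.1 CPM in input Veh, 32.5, 35.4 and 39.4 in input Rosi, 26.7, 32.5 and 34.8 in polysome Veh and 35.3, 30.2 and 29.4 in polysome Rosi. Its groups were apart in input and overlapped in polysome, and its efficiency changed by −0.43 ± 0.19 (adjusted p = 0.719). Gla changed by −3.17 ± 1.15 (adjusted p = 0.719) and had 0 reads in polysome Rosi replicate 3. Mitf, which was lower with Rosi in input and overlapped in polysome, changed by 0.46 ± 0.18 (adjusted p = 0.719). Lamp1 changed by 0.03 ± 0.12 (adjusted p = 0.965), Tfeb by 0.21 ± 0.24 (adjusted p = 0.85) and Tfe3 by 0.29 ± 0.21 (adjusted p = 0.78).

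A further 58 lysosomal genes outside the set were read in the same fits. In input, 2 were called higher with Rosi and 0 lower, beside 1.13% and 0.206% of all genes, with a median of −0.11. They were Acp2, an acid phosphatase (1.00 ± 0.10, adjusted p = 0.000128), and Sort1, a sorting receptor (0.66 ± 0.11, adjusted p = 0.00795). Acp2 had −1.12 ± 0.43 in polysome (adjusted p = 0.91) and an efficiency change of −2.03 ± 0.58 (unadjusted p = 0.00327, adjusted p = 0.719). In polysome none was called (median −0.06), beside 0.655% of all genes. Between the fractions, 20 were called higher and 22 lower in Veh (median −0.11), beside 24.7% and 24.6% of all genes. In Rosi, 21 were called higher and 25 lower (median −0.19), beside 29.1% and 26.0%. The 45 genes of the set leaned more to lower calls, with 9 higher and 22 lower in Veh and 8 and 23 in Rosi. Both lists were chosen with earlier results of these data known, and the difference between them was not tested. In Veh, Tcirg1, another a subunit of the pump, fell by 1.47, and in Rosi it fell by 1.25, while the pump genes Atp6v0e and Atp6v1g1 rose by 0.98 and 1.00. None was called for translational efficiency (median 0.10), beside 0.0% of all genes.

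Transcript shares, as percent of the gene's TPM, were read for Lamp2, Mitf and the 3 genes whose main transcripts were most evenly split. They were not tested. Gaa-201 took 30.8 ± 4.64% of Gaa in input Veh, 41.2 ± 0.559% in input Rosi, 63.1 ± 7.04% in polysome Veh and 60.7 ± 14.1% in polysome Rosi, with Gaa-203 holding most of the rest. Idua-202 took 62.5 ± 19.1%, 76.9 ± 15.4%, 32.1 ± 6.55% and 29.9 ± 4.42% of Idua in the same order, and Idua-203 held 59.4% and 63.9% in the polysome groups. For both genes the transcript that led in the input means was not the one that led in the polysome means, although in polysome Rosi replicate 2 Gaa-203 led with 55.6%. Idua overlaps Dgkq on the opposite strand, at 12.0 CPM against 19.3 for Idua.

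Ctsb-202, a transcript of 801 bases annotated with a retained intron, took 54.5 ± 0.915%, 55.5 ± 0.989%, 48.4 ± 2.45% and 46.1 ± 3.22% of Ctsb TPM in that order, and the protein-coding Ctsb-201 of 4743 bases took nearly all of the rest. By reads, transcripts that are not protein-coding held 11.6%, 12.0%, 9.32% and 8.56% of Ctsb. The Lamp2-201 share was 62.8 ± 1.35%, 67.1 ± 1.25%, 61.4 ± 1.29% and 62.4 ± 1.61%, with Lamp2-202 at 32.4% to 38.2%. Mitf-202 held 97.0% to 97.9% of Mitf in the group means.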

How the data were processed

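RNA was enriched for poly(A) and sequenced in read pairs. Per the methods and the submitters' processing notes, the authors used bcl2fastq 2.17, FastQC and Salmon against mm10, and DESeq2 for their own comparisons. The deposited values were Salmon's expected counts and TPM for each of 117135 transcripts, with the TPM normalised by the authors' Salmon run to transcript length and library. The annotation, Salmon's version and strand setting are not given in the sources used here.

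Transcripts were assigned to genes through GENCODE M21 (115973 matched; the remaining 1162 held 0.381% to 0.464% of reads and were left out). Expected counts were summed by gene and rounded. edgeR 4.0.16 in R 4.3.3 was used (filterByExpr, TMM, glmQLFit and glmQLFTest, two-sided, Benjamini-Hochberg over all genes tested). Rosi against Veh was fitted within each fraction; the ratios of polysome to input and their interaction were fitted over all 11 libraries. Errors of fold changes are standard errors from the fit, and other errors are SDs. Alternatives used DESeq2 1.42.0, limma 3.58.1 on log2(TPM + 1), other filters, a replicate block and single libraries left out. The edgeR and DESeq2 fits at their main settings, and limma on scaled counts in place of TPM, were run on simulated counts with known changes. The other filters, the block and the fits with a library left out were not. The genes, lists and tests were chosen with earlier results of these data known. In each comparison the genes named were those called, up to the 10 of smallest p, or the 4 of smallest p where fewer than 4 were called, with Lamp1, Tfeb, Tfe3 and Mitf; others are named as chosen after their values were seen. Marker and further lysosomal lists were written by hand. With 17.4 to 24.0 M reads, the number of libraries and, for Gla, the reads limit precision.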

Additional observations from a re-analysis of the deposited data

Results flagged for a closer look

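Ids drew attention because every input library of Rosi was higher, and every polysome library of Rosi lower, than the Veh libraries of the same fraction. The difference between the 2 effects, polysome less input, was −0.62 ± 0.18 on the log2 scale (edgeR's quasi-likelihood test of the interaction, unadjusted p = 0.00381, adjusted p = 0.719), so it did not pass the adjustment over 14042 genes. Such opposite directions were found for 144 of 13258 genes, or 1.09%.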

How the results depend on the processing

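The range when 1 library was left out, lowest to highest, was 0 to 14 lysosomal genes called in input (66 to 1580 of all genes), 0 to 0 in polysome (55 to 179), 22 to 30 for polysome over input in Veh (5120 to 7329, members' median −0.34 to −0.21), 26 to 31 in Rosi (6520 to 8277) and 0 to 0 for translational efficiency (0 to 9). Without input Rosi replicate 1, 14 were called in input, and without replicate 3, 1 (Gla). For Rosi in input, where edgeR called 0 of the 45 and 182 of all genes, DESeq2 called 4 and 367, no count filter 8 and 907, a filter of 10 reads in every library of a group 1, and the fit with all libraries as deposited, which counts the identical pair as 2, called 9 and 1054. limma on log2(TPM + 1) called 57 genes in all, with a members' median of −0.04, and 1 fit of all groups called 77, with −0.18. For Rosi in polysome, where 88 of all genes were called, no count filter gave 189 and limma 37. A log2 ratio beyond 1 left 7 lysosomal genes and 1358 of all genes for polysome over input in Veh, and 5 and 1593 in Rosi. The members' median in Veh was −0.15 by limma. For translational efficiency, where 0 of all genes were called, DESeq2 called 1, no count filter 57 (Gla among them) and protein-coding transcripts only, an alternative chosen after seeing the data, 1. The members' median was −0.02 by limma. Causes were not tested beyond what each alternative's construction shows.

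Among called ratios, Gla in Veh turned from 2.36 to −0.12 by limma on log2(TPM + 1), and no other called ratio turned under the alternatives run. Among uncalled values of named genes, signs turned near 0. Lamp1 in input was −0.03 in 1 fit of all groups and 0.00 to 0.07 with a library left out. In polysome, Lamp1 was 0.01 by limma and −0.04 to 0.03 with a library left out, Tfeb −0.17 to 0.19, Tfe3 −0.15 to 0.12 and Mitf −0.11 to 0.08. For translational efficiency Lamp1 was −0.08 by limma and 0.00 to 0.07 with a library left out. Deviations from the group means correlated at −0.395 to 0.204 between libraries with the same replicate number. Between differently numbered libraries the correlations were −0.204 to 0.451. The numbers were not taken to pair the samples, but with 2 or 3 libraries per group these values cannot exclude a pairing. In the paper, input RNA was taken ahead of the fractionation, so input and polysome libraries may share lysates. Which libraries would do so is not given in the sources used here. With the replicate number as a block, 1 lysosomal gene was called in input (Gla), 0 in polysome, 26 for polysome over input in Veh (Atp6v0d1, Ctsb, Ctsl, Gm2a and Mitf lost) and 28 in Rosi, and Tfeb in polysome was 0.01. Of the fold changes of named genes, 831 kept direction and side of the threshold, 20 came to pass it, 25 lost it and 14 changed sign.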
